A study of Mus musculus with 12 samples.

Results

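The small leucine-rich proteoglycans were followed in mouse 3T3 cells through 10 genes: Lum, Dcn, Bgn, Fmod, Ogn, Prelp, Aspn, Omd, Epyc and Kera. Every probe annotated to 1 of these symbols was taken, which gave 14 probes of 38784 on the array and 10 genes of 16969. Dcn had 4 probes, Ogn had 2, and the other 8 genes had 1 each. The study treated 3T3 cells, an established line of mouse embryo fibroblasts, with the small molecule Shld1, a synthetic ligand of a destabilising domain made from the prolyl isomerase FKBP12. The 4 groups were control cells and cells given 10 nM, 100 nM or 1 µM Shld1, with 3 arrays each, so that 12 arrays were compared. Each array carried a cell sample in the red dye Cy5 and a commercial mouse reference RNA in the green dye Cy3, in 1 dye orientation throughout. The labels give neither the length of treatment nor any transgene in the cells. They also do not say whether the 3 replicates were separate cultures, so a p-value here reflects the spread among these arrays alone.

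Small leucine-rich proteoglycans are secreted matrix proteins whose core is built of leucine-rich repeats and which, in most members, carries chondroitin, dermatan or keratan sulfate chains. They bind collagen and shape how fibrils assemble, and several also bind growth factors such as TGF-beta or receptors at the cell surface. Fibroblasts of skin, tendon and cornea are among their main sources. By sequence the 10 genes fall into class I (Dcn, Bgn and Aspn), class II (Lum, Fmod, Prelp, Omd and Kera) and class III (Epyc and Ogn).

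In the order of protein-coding genes of the mouse assembly GRCm38.p6, Dcn, Lum, Kera and Epyc follow each other on chromosome 10. Aspn, Omd and Ogn follow each other on chromosome 13, Prelp and Fmod are neighbours on chromosome 1, and Bgn lies on the X chromosome. RefSeq promoter windows of that build were at hand for 8 of the 10 genes, in 9 windows. The 250 bases before the annotated start are shown for Bgn and Aspn, which stood above the reference RNA, and for Ogn, which stood furthest below it. All 3 genes lie on the plus strand, at chrX:73483351-73483600 for Bgn, chr13:49544193-49544442 for Aspn and chr13:49607765-49608014 for Ogn. Capitals mark the motifs searched on both strands, which were the TATA-box letters TATAAA, the AP-1 motif TGANTCA, the TEAD motif GGAATG and the SP1 motif GGGCGG.
Bgn: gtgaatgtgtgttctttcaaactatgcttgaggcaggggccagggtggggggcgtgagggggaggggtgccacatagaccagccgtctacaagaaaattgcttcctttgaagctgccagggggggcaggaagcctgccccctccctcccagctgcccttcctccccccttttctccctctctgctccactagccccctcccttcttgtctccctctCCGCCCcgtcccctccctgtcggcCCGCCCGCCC
Aspn: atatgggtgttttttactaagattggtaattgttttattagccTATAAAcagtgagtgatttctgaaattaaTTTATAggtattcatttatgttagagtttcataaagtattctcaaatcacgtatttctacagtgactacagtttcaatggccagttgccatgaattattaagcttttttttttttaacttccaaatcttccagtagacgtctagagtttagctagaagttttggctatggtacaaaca
Ogn: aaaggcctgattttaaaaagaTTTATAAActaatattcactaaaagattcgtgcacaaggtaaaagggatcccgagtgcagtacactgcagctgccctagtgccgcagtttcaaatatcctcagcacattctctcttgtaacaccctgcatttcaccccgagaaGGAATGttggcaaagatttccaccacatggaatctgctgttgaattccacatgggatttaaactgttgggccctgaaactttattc
The Bgn window held 3 matches to GGGCGG, the last pair overlapping, and 64.4% of its bases were G or C. The Aspn window held 2 matches to TATAAA and 30.0% G or C, and the Ogn window held TATAAA on both strands, overlapping each other, 1 match to GGAATG and 42.0% G or C. TATAAA occurred in 12.4% of the 32817 windows of this length, GGAATG in 12.6%, GGGCGG in 32.7% and TGANTCA in 6.75%. Apart from GGAATG in 1 of 2 Epyc windows, no motif was matched in the windows of Epyc, Fmod, Kera, Omd and Prelp. TGANTCA was matched in none of the 9 windows. The TATAAA matches of Aspn and Ogn lie in the part of each window furthest from the annotated start. A match describes letters and was not tested as a TATA box or a binding site.

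An array held values for 30649 to 33615 probes. Before each array was centred on its median, the medians were -0.20 to -0.10. All values below are log2 ratios of cell sample over reference RNA, with log base 2 assumed and the direction taken from the dyes. A difference between cells and reference cannot be told apart from a dye effect, because dyes were not swapped, and it leaves out the spread of the reference itself. Centring raised every ratio to the reference by the size of the array's median. In control cells 8 of 12 fibroblast markers were higher than in the reference and 1 was lower. Of 6 leukocyte markers 5 were lower. These calls are by limma with Benjamini-Hochberg adjustment, by which 26.5% of all genes were higher and 19.6% lower.

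Control 3T3 cells differed from the reference RNA in 13 of the 14 probes of these 10 genes, in both directions. Lum, Bgn, Aspn, Prelp and all 4 Dcn probes were higher, and both Ogn probes, Epyc, Fmod and Omd were lower. These were 8 probes higher and 5 lower, and all 14 passed the filter on blanks. Over all 30357 probes tested, 23.4% were called higher and 19.9% lower at an adjusted p under 0.05 (limma with Benjamini-Hochberg adjustment), so a call of this kind was common on these arrays.

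**Figure D1:**
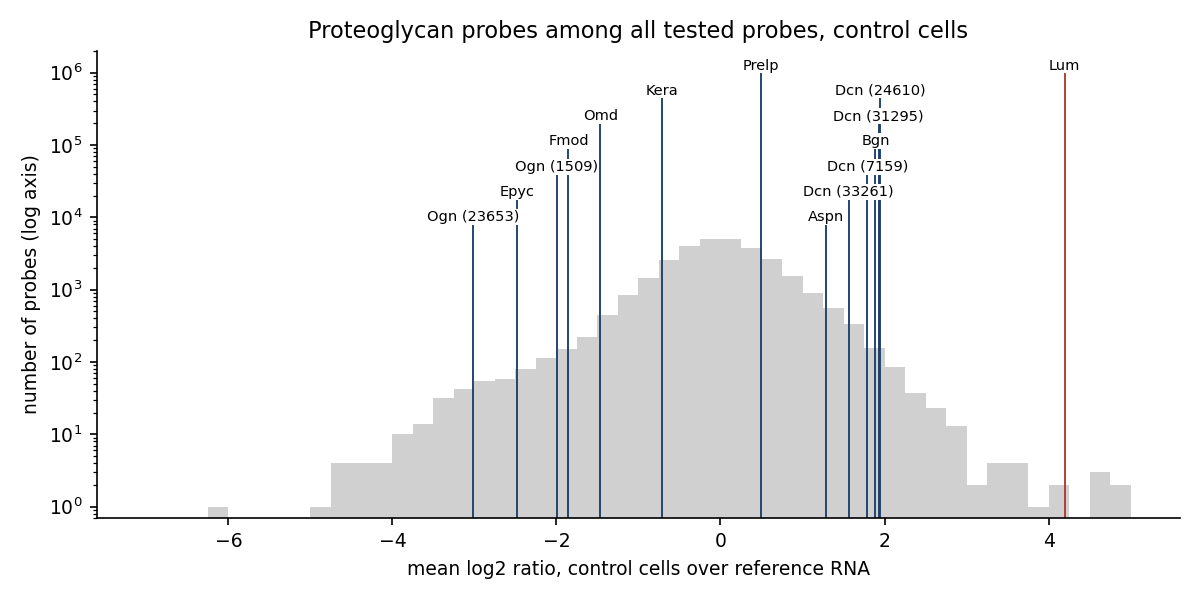
Distribution of the mean log2 ratio of control cells over reference RNA for 30357 probes (grey bars, log axis of probe number) with the 14 proteoglycan probes as vertical lines, Lum in red and probe numbers in brackets where a gene has more than 1. Lum at 4.20 lies at the upper end, with 6 probes above it, and Ogn probe 23653 at -3.02 lies furthest below 0 among the members.

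Lum encodes lumican, a keratan sulfate proteoglycan that orders collagen fibrils in cornea and skin. Its log2 ratio was 4.50, 3.97 and 4.12 on the 3 control arrays, all far above 0. The mean of 4.20 ± 0.27 (SD, n = 3), an 18.3-fold excess over the reference, had an adjusted p of 3.44e-06 (limma with Benjamini-Hochberg adjustment). Of all probes tested, 6 had a higher mean in control cells, which placed Lum 7th of 30357. With Shld1 it was 9th at 10 nM, 18th at 100 nM and 12th at 1 µM.

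Among class I members, Dcn encodes decorin, which binds collagen fibrils and TGF-beta. Its 4 probes averaged 1.94 ± 0.25, 1.93 ± 0.29, 1.79 ± 0.25 and 1.56 ± 0.17 in control cells (SD, n = 3), and their lowest control value was 1.45. These means were higher than those of 98.2% to 99.3% of all probes tested. Bgn encodes biglycan, which binds collagen and Toll-like receptors, and its ratio was 2.12, 1.84 and 1.71 on the control arrays. Its mean was 1.89 ± 0.21 (SD, n = 3), with an adjusted p of 1.14e-06 (limma with Benjamini-Hochberg adjustment).

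Aspn encodes asporin, a class I member without glycosaminoglycan chains that binds TGF-beta. It varied more, at 1.16, 2.01 and 0.70 on the control arrays, with an adjusted p of 0.00645 (limma with Benjamini-Hochberg adjustment). Without control replicate 2 the Aspn ratio was 0.93 with an adjusted p of 0.0620, past the threshold no longer. Prelp encodes a class II protein that links collagen to heparan sulfate of basement membranes, and it was at 0.28, 0.74 and 0.46, a mean of 0.50 ± 0.23 (SD, n = 3). Its call, at an adjusted p of 0.0357 (limma), was lost on values that were not centred (0.34, adjusted p = 0.105), with quantile normalization (0.35, adjusted p = 0.0788) and without control replicate 2 (0.37) or control replicate 3 (0.51).

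The members below the reference came from classes II and III. Ogn encodes osteoglycin, also called mimecan, and its probe 23653 was at -3.19, -2.90 and -2.97 on the control arrays. That mean of -3.02 ± 0.16 (SD, n = 3) was lower than those of all but 109 probes, with an adjusted p of 2.97e-07 (limma with Benjamini-Hochberg adjustment). The other Ogn probe, 1509, was at -2.84, -1.67 and -1.46 on the same arrays. Over the 12 arrays it read higher than probe 23653 on 11, by a median of 1.35, and the correlation between the 2 probes was -0.06, so they did not rank the arrays alike.

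Fmod encodes fibromodulin, which regulates collagen fibrils in tendon, and its control values were -1.87, -2.27 and -1.42, with an adjusted p of 6.62e-05 (limma). Omd encodes osteomodulin of bone matrix, and it was at -2.27, -0.84 and -1.28, with an adjusted p of 0.00541 that became 0.0518 without control replicate 1 (-1.06). Epyc encodes epiphycan of growth-plate cartilage and had a value on 2 control arrays, -2.99 and -1.98. The mean of -2.48 had an adjusted p of 0.000488, and control replicate 3 was blank. Kera encodes keratocan of the corneal stroma and stood nearest to the reference among the members below it, at -0.59, -1.21 and -0.36 on the control arrays. Its mean of -0.72 ± 0.44 (SD, n = 3) narrowly missed the threshold, with an adjusted p of 0.0518, and passed it in 8 of 21 alternative settings. With 1 value per gene it passed at an adjusted p of 0.0498 (limma), and 5 of the 10 genes were then called higher and 5 lower. The Kera call therefore lay at the threshold and changed with the setting and with the level of the fit.

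At 10 nM Shld1, 8 probes were called higher than the reference and 4 lower, against 23.1% and 19.1% of all probes. At 100 nM there were 7 higher and 5 lower, against 26.1% and 22%. Aspn was among those higher at 10 nM (0.93, adjusted p = 0.0310) and did not pass at 100 nM (0.65, adjusted p = 0.102), while Epyc missed the threshold at 10 nM (-0.85, adjusted p = 0.0506) and was lower at 100 nM (-1.69, adjusted p = 0.00130), by limma with Benjamini-Hochberg adjustment. In cells given 1 µM Shld1, 7 probes were called higher than the reference and 4 lower, against 23% and 20.3% of all probes. The 7 were Lum, Bgn, Prelp and the 4 Dcn probes, and the 4 were both Ogn probes, Fmod and Omd. Aspn had a mean of 0.60 over 2 arrays with an adjusted p of 0.218, Epyc -0.71 ± 0.40 (SD, n = 3) with 0.0926, and Kera -0.03 ± 0.87 (SD, n = 3) with 0.947 (limma with Benjamini-Hochberg adjustment). A call in one group and none in the other does not show a difference between the groups, which is tested in the comparisons of doses with control.

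**Figure D2:**
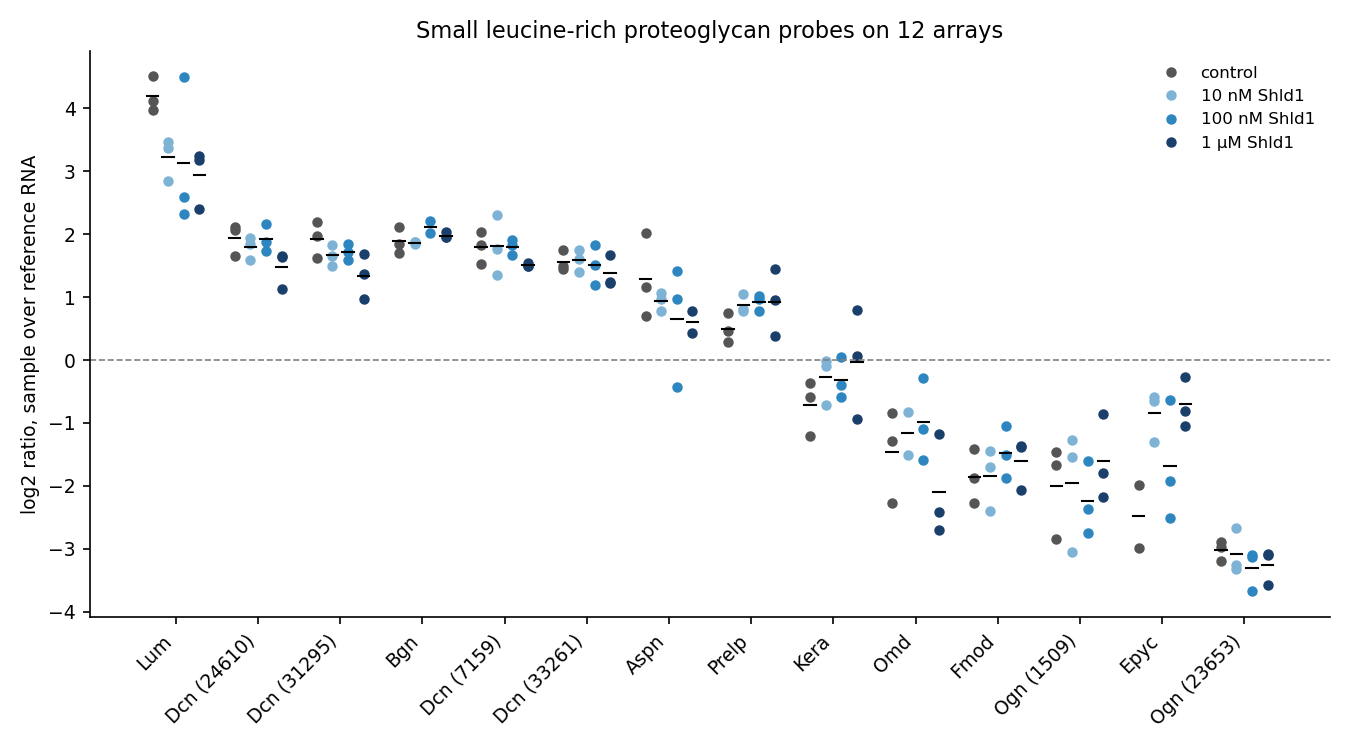
Log2 ratio of sample over reference RNA (vertical axis) for each of 14 probes on 12 arrays, ordered by the control mean, with points for arrays, black bars for group means and colours for control, 10 nM, 100 nM and 1 µM Shld1. The 8 positions from Lum to Prelp have control means above 0 and the rest below, 1 Aspn array (-0.42 at 100 nM) lies below 0 and 3 Kera arrays above it, and within most probes the 4 groups overlap.

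No member passed the test against control at any dose of Shld1. At 1 µM, 0 of 14 probes were called at an adjusted p under 0.05, against 0.00329% of all probes, which was 1 probe. At an unadjusted p under 0.05 there were 4 of 14 probes (Epyc, Lum and 2 of Dcn), against 4.23% of all probes. At 100 nM and at 10 nM, 0 of 30357 probes were called (0%). At an unadjusted p under 0.05 there was 1 member each, Lum at 100 nM against 3.23% of all probes, and Epyc at 10 nM against 2.67%. The comparisons of the 3 doses share the same control arrays and so are not independent of each other.

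The mean of Lum was below control at each dose of Shld1, and none of these differences passed. Across doses its log2 ratio was 4.50, 3.97 and 4.12 in control cells, 2.84, 3.36 and 3.46 at 10 nM, 2.58, 2.32 and 4.49 at 100 nM, and 3.25, 3.17 and 2.40 at 1 µM. The arrays at 10 nM and at 1 µM all lay below the control arrays, while replicate 3 at 100 nM lay among them. Of all probes with a value on every array compared, 3.25% lay wholly below control at 10 nM and 3.93% at 1 µM. The doses share the same control arrays. Against control, the differences were -0.98 (SE 0.47) at 10 nM, -1.07 (SE 0.47) at 100 nM and -1.26 (SE 0.47) at 1 µM.

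The Lum difference at 1 µM had a 95% interval from -2.28 to -0.24, an unadjusted p of 0.0198 and an adjusted p of 0.999 (limma with Benjamini-Hochberg adjustment). With quantile normalization the Lum difference was smaller at each dose, at -0.64 for 10 nM, -0.94 for 100 nM and -0.71 for 1 µM (SE 0.49 each). With arrays scaled to equal median absolute deviation it was -1.37 (SE 0.46) at 1 µM. At 100 nM the interval of the main fit ran from -2.09 to -0.05. The difference at that dose was -1.74 without its replicate 3 and -0.66 without its replicate 2. For the mean of the 3 doses against control Lum differed by -1.10 (SE 0.38), with an unadjusted p of 0.0138 and an adjusted p of 1.00 (limma with Benjamini-Hochberg adjustment). In that comparison 0 of 14 members and 0% of all probes were called, and 2 members, Lum and Epyc, had an unadjusted p under 0.05 against 3.16% of all probes.

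**Figure D3:**
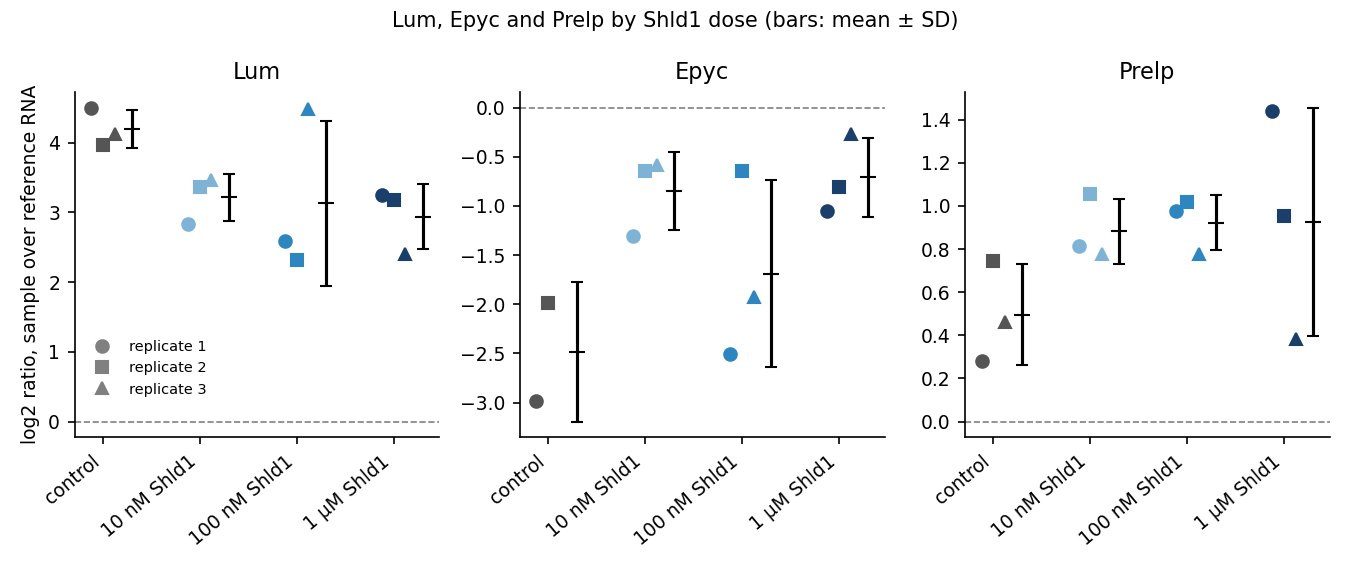
Log2 ratio of sample over reference RNA for Lum, Epyc and Prelp on each array, by Shld1 dose from control to 1 µM, with symbols for replicate 1, 2 and 3 and bars for the mean ± SD. Lum replicate 3 at 100 nM (4.49) lies with the control arrays, the Epyc control has 2 points because control replicate 3 was blank, and the vertical scales differ between panels.

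The Epyc values with Shld1 lay on the other side of control from those of Lum. Its log2 ratio was -2.99 and -1.98 in control cells, -1.31, -0.65 and -0.58 at 10 nM, -2.50, -0.64 and -1.92 at 100 nM, and -1.05, -0.81 and -0.26 at 1 µM. All arrays at 10 nM and 1 µM were nearer to the reference than both control arrays, and the 100 nM arrays were spread over the whole range. The shares of all probes lying wholly on 1 side of control needed a value on every control array, which left Epyc out. No such share stands beside this separation, which is easier to reach against 2 control arrays than against 3. Against control the differences were 1.64 (SE 0.50) at 10 nM, 0.80 (SE 0.50) at 100 nM and 1.78 (SE 0.50) at 1 µM. Their unadjusted p-values were 0.00734, 0.139 and 0.00447, and the adjusted p at 1 µM was 0.999 (limma with Benjamini-Hochberg adjustment). At 100 nM the difference was 0.27 without replicate 2 of that dose and 1.20 without its replicate 1. The control side rests on 2 arrays, and without either of them Epyc could not be tested.

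Prelp lay higher than all 3 control arrays on all arrays at 10 nM (0.81, 1.06 and 0.78) and at 100 nM (0.98, 1.02 and 0.78). At 1 µM it was at 1.44, 0.95 and 0.38, against 0.28, 0.74 and 0.46 in control cells, so those groups overlapped. The differences were 0.39 (SE 0.24) at 10 nM, 0.43 (SE 0.24) at 100 nM and 0.43 (SE 0.24) at 1 µM, none of which passed. Without 1 µM replicate 1 the last was 0.17, and without replicate 3 of that dose it was 0.70. Of the 12 member probes with a value on every array compared, Lum alone lay wholly below control at 10 nM, against 3.25% of all probes, and Prelp alone wholly above, against 3.43%. At 100 nM Prelp alone lay wholly above, against 4.48%, and no member lay wholly below, against 3.66%. At 1 µM Lum and Dcn probe 24610 lay wholly below, against 3.93%, and none wholly above, against 3.45%.

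The 4 Dcn probes read close to control at the lower doses and somewhat below it at 1 µM. At 1 µM probe 31295 was at 1.69, 1.37 and 0.97, against 1.97, 2.19 and 1.62 in control cells, a difference of -0.59 (SE 0.21) with an unadjusted p of 0.0179. Probe 24610 was at 1.65, 1.64 and 1.13 at 1 µM, against 2.06, 2.11 and 1.66 in control cells, a difference of -0.47 (SE 0.21) with an unadjusted p of 0.0433. Probes 7159 and 33261 differed by -0.29 (SE 0.23) and -0.19 (SE 0.21). All 4 values were below 0, as were those of 51.6% of all probes, and the 4 probes measure 1 gene on the same arrays. The adjusted p was 0.999 for each (limma with Benjamini-Hochberg adjustment). Leaving out 1 array moved probe 24610 between -0.61 and -0.30 and probe 31295 between -0.76 and -0.40. At 10 nM and 100 nM the 4 probes lay between -0.27 and 0.02.

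The ratio of Bgn stayed within a narrow band. It was 1.71 to 2.12 in control cells, 1.84 to 1.88 at 10 nM, 2.01 and 2.21 on the 2 arrays with a value at 100 nM, and 1.95 to 2.03 at 1 µM. The difference at 1 µM against control was 0.09 (95% interval -0.27 to 0.44), with the smallest standard error among the members (0.16). The interval of 7 of the 14 members at 1 µM stayed within a doubling or halving, as did those of 77.9% of all probes.

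Aspn differed from control by -0.35 (SE 0.44) at 10 nM, -0.64 (SE 0.44) at 100 nM and -0.68 (SE 0.49) at 1 µM, where 1 array was blank. Its 100 nM arrays ranged from -0.42 to 1.41, wider than any other group of this gene. Omd differed by 0.30 (SE 0.54), 0.47 (SE 0.48) and -0.63 (SE 0.48) at rising dose, with 1 blank array at 10 nM. Kera differed by 0.45, 0.41 and 0.69 (SE 0.39 each), with values from -0.93 to 0.80 at 1 µM. None of these passed the test, and single arrays moved them. Aspn at 100 nM was -0.10 without replicate 2 of that dose, Omd at 100 nM was 0.068 without control replicate 1, and Kera at 1 µM was 0.28 without replicate 1 of that dose and 1.15 without its replicate 2. Fmod lay between 0.01 and 0.38 against control at the 3 doses, and the 2 Ogn probes between -0.28 and 0.38.

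**Figure D4:**
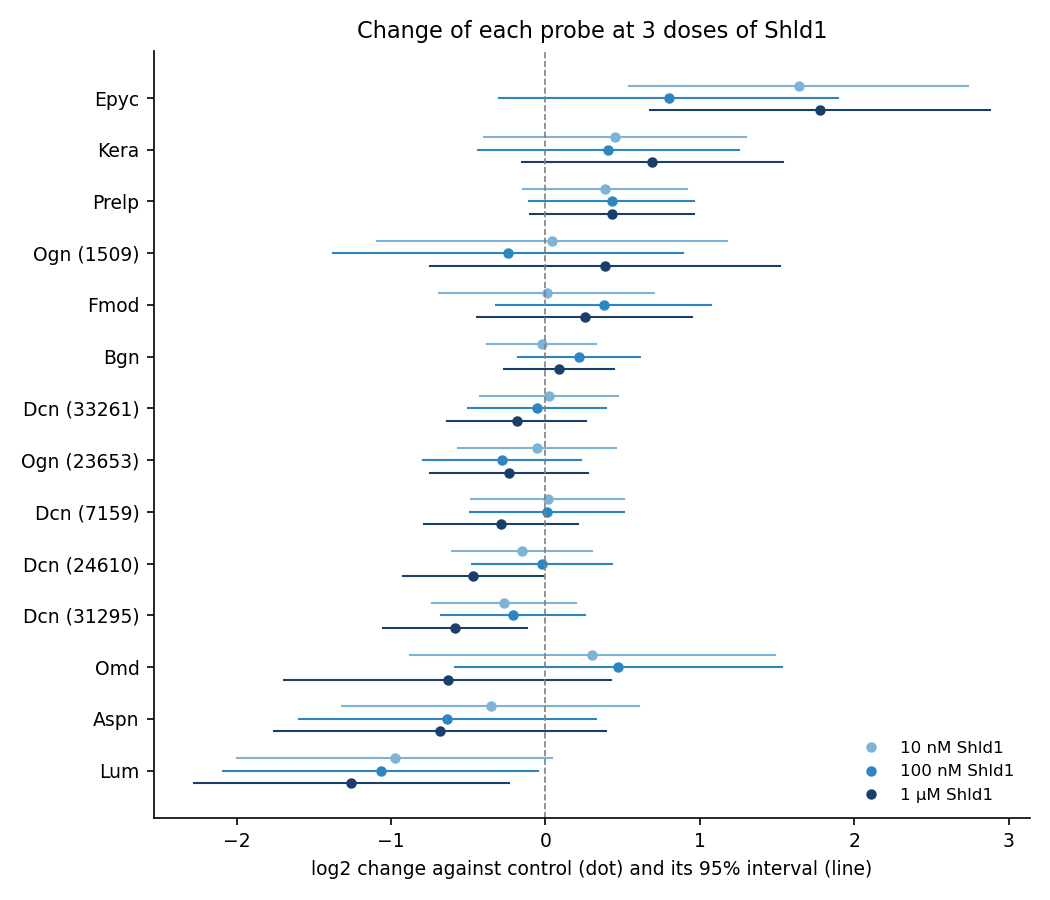
Log2 change against control (dots) with 95% intervals (lines) for 14 probes at 10 nM, 100 nM and 1 µM Shld1, ordered by the value at 1 µM. Epyc at 10 nM and 1 µM, Lum at 100 nM and 1 µM and 2 Dcn probes at 1 µM have unadjusted intervals that leave out 0, and none of the 14 passed the adjusted test.

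Between doses, 0 of 14 members were called at 1 µM against 100 nM or against 10 nM, beside 1 probe of all (0.00329%) in each. Omd was the member with the smallest unadjusted p at 1 µM against 100 nM. It was at -2.70, -2.41 and -1.18 at 1 µM, against -1.10, -0.29 and -1.59 at 100 nM, a difference of -1.10 (SE 0.48) with an unadjusted p of 0.0421 and an adjusted p of 0.988 (limma with Benjamini-Hochberg adjustment). This was 1 of 14 members under that level, against 4.82% of all probes. Against 10 nM there was none, where 2.79% of all probes were under that level. Lum at 1 µM differed by -0.19 (SE 0.47) from 100 nM and by -0.28 (SE 0.47) from 10 nM, smaller than the spread of its arrays.

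Levels of marker genes were set beside these values. The mean log2 ratio over 12 fibroblast markers was 0.99 to 1.30 on the control arrays, 0.88 to 1.06 at 10 nM, 1.03 to 1.15 at 100 nM and 0.81 to 1.00 at 1 µM. Of the 12, 10 lay below control in mean at 10 nM, 5 at 100 nM and 9 at 1 µM, beside 51.6%, 46.1% and 53% of all genes. The mean over 6 leukocyte markers was -1.77 to -0.74 in control cells, -0.99 to -0.67 at 10 nM, -1.50 to -1.09 at 100 nM and -1.16 to -0.58 at 1 µM. Of these, 1 lay below control in mean at 10 nM, 5 at 100 nM and 0 at 1 µM, where Adgre1, a macrophage surface receptor, differed by 1.04 (SE 0.44). No marker of either list was called at any dose. Lum was below control in mean at all 3 doses. Most fibroblast markers were below control at 10 nM and 1 µM but not at 100 nM, and most leukocyte markers at 100 nM only. The part of either marker list in the Lum and Epyc values was not tested. In RNA of whole cultures, fewer cells of a type and less RNA per cell cannot be told apart.

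Across the 12 arrays the members did not vary as 1 block. Lum correlated with Aspn at 0.64 (11 arrays), with the Dcn probes at 0.11 to 0.59, and with Epyc at -0.57 (11 arrays). These are descriptions over arrays that share 1 reference RNA and 4 dose groups. By the highest correlation with Lum among the 19051 other probes that carried 1 gene symbol and had a value on all 12 arrays, the most similar genes were Golga1, a golgin of the trans-Golgi (r = 0.89), Insig1, which restrains processing of the sterol factor SREBP (0.88), Efcab14 (0.87), Kctd20 (0.87) and Cst10 (0.85). The most opposite were Olfr845 (-0.90), Cst7 (-0.85) and Nos1 (-0.84). These are the extremes of 19051 correlations over only 12 arrays. Values of this size can arise from such a selection, and no relation between the genes was tested. Other probes of Insig1, Efcab14 and Kctd20 had a median correlation with Lum of 0.36, 0.33 and 0.18. The likeness was thus not shared by all probes of those genes. The other probe of Nos1 was at -0.32, and Golga1, Cst10, Olfr845 and Cst7 had no other probe among those compared.

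For Dcn probe 7159 the most similar genes were Cmtm4 (r = 0.92), Hip1 (0.88), Wwox (0.88), Invs (0.87) and Mgat1 (0.87), and the most opposite were Esrp2, an epithelial splicing factor (-0.90), Rheb, an activator of mTORC1 (-0.88), and Susd4 (-0.87). Cmtm4 averaged 0.06 at 1 µM and 0.32 in control cells, and Esrp2 -0.04 at 1 µM and -0.47 in control cells. As for Lum, these are extremes picked from many probes. With Dcn probes 24610, 31295 and 33261, probe 7159 correlated at 0.69, 0.58 and 0.53, lower than with any of the similar genes named. The likeness therefore describes 1 probe and not Dcn as a gene. Where a similar or opposite gene had another probe among those compared, that probe did not share it either. Mgat1 and Rheb had no other such probe. The other probe had a correlation with Dcn probe 7159 of 0.09 for Cmtm4, 0.12 for Hip1, -0.12 for Wwox, -0.24 for Invs, -0.10 for Esrp2 and 0.41 for Susd4, the opposite sign for Wwox, Invs and Susd4.

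Genes that build, bind or cut small leucine-rich proteoglycans were counted with 1 value per gene. At 1 µM against control, 0 genes of any of these lists were called higher or lower, as for all 14523 genes tested by limma, of which 618 had an unadjusted p under 0.05. Against the reference RNA, 26.5% of all genes were called higher in control cells and 19.6% lower. The genes named from each list are those with the smallest unadjusted p at 1 µM.

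Of 26 enzymes of glycosaminoglycan synthesis, 11 were higher in control cells than in the reference, 4 were lower and 11 did not pass. B3galt6, which adds the second galactose of the linker to the core protein, was lower (-0.62, SE 0.16) and differed by 0.65 (SE 0.22) at 1 µM against control. B3gat3, which adds the glucuronic acid of the linker, differed by 0.29 (SE 0.12) at 1 µM, and the linker kinase gene Fam20b by -0.42 (SE 0.20). Of 13 fibrillar and fibril-associated collagens, 7 were higher than the reference, 2 lower and 4 did not pass. Col6a1 was higher (1.28, SE 0.13), Col14a1, a fibril-associated collagen, was lower (-1.02, SE 0.20), and Col3a1 was at 0.01 (SE 0.13). With 1 µM Shld1 they differed from control by -0.30 (SE 0.19), 0.43 (SE 0.29) and -0.45 (SE 0.18).

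Of 10 proteases that cleave these proteoglycans, 6 were higher in control cells than in the reference, 3 lower and 1 did not pass. The gelatinase gene Mmp2 was higher (1.53, SE 0.13), the stromelysin gene Mmp3 was lower (-3.88, SE 0.55) and the macrophage elastase gene Mmp12 was higher (0.59, SE 0.13). In cells given 1 µM Shld1, Mmp2 differed from control by -0.41 (SE 0.19), Mmp3 by 1.65 (SE 0.78) and Mmp12 by 0.33 (SE 0.19). Of 23 ligands and receptors bound by the family, 3 were higher, 5 lower and 15 did not pass. Tlr4, a Toll-like receptor bound by biglycan and decorin, was higher (0.77, SE 0.11), its co-receptor gene Cd14 was lower (-0.68, SE 0.23), and the death receptor gene Fas was at -0.03 (SE 0.19). Against control, Tlr4 at 1 µM differed by -0.50 (SE 0.15), with an unadjusted p of 0.00640, Fas by -0.81 (SE 0.27) and Cd14 by 0.53 (SE 0.33).

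Of 8 other secreted proteoglycans, 2 were higher in control cells than in the reference, 1 lower and 5 did not pass. Vcan (versican, a hyaluronan-binding proteoglycan) was higher (2.11, SE 0.16), Agrn (agrin of basement membranes) was lower (-1.14, SE 0.10) and Srgn (serglycin of secretory granules) was at -0.56 (SE 0.30). Against control, they differed at 1 µM by -0.41 (SE 0.22), 0.31 (SE 0.14) and 0.34 (SE 0.43). None of the 5 other small leucine-rich proteoglycans tested passed against the reference. Nyx (nyctalopin of the retina) was at 0.38 (SE 0.22), Podnl1 at -0.07 (SE 0.12) and Podn (podocan) at -0.72 (SE 0.33), and at 1 µM against control they differed by -0.80 (SE 0.28), -0.15 (SE 0.17) and 0.23 (SE 0.42).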

How the data were processed

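RNA of mouse 3T3 cells was measured on 12 arrays of 2 colours in 4 groups of 3. The values are the deposited log2 ratios per probe and array, and how the authors corrected background, filtered spots and normalized is not stated in the labels or file headers used here. Per the labels, samples were in Cy5 and the reference RNA in Cy3, with an Axon scanner. The log base and centring are not stated, base 2 is assumed, and if the ratios ran the other way every sign would turn. Scanner intensities were not analysed here, so signal over background is unknown and no dim-spot filter was applied. The number of arrays limits the precision.

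The platform annotation named the probes, of which 26173 carried 1 symbol, 28 carried several and 12583 carried none. Arrays were centred on their medians. Probes with a value on at least 2 arrays of every group were tested (30357, with 8427 left out), in R 4.3.3 by limma 3.58.1, in 1 fit over the 12 arrays whose only term was the group, with Benjamini-Hochberg adjustment over all probes and a threshold of 0.05. Gene values are means of a gene's probes with a value on all 12 arrays. Where no probe was complete, the probe with the most values stands for the gene. The fit was checked on simulated data. Comparisons were each dose and the mean of doses against control, 1 µM against the other doses, and control cells and each dose against the reference. Shares of calls over all probes stand beside member counts.

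All member probes are reported. From each of 13 other lists, up to 3 genes are named by their unadjusted p at 1 µM, smallest first, and the genes most and least correlated with Lum and Dcn. The members and lists were chosen with earlier results of these data known. Alternatives were other centring, scaling and filters, the replicate number as a block, robust variance, array weights, fits of 2 groups and leaving out each array. Promoter sequences are those of RefSeq, build GRCm38.p6. Python 3.11.15 with matplotlib 3.10.9 drew the figures.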

Additional observations from a re-analysis of the deposited data

How the results depend on the processing

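The count of members called against control, and at 1 µM against the lower doses, was 0 in all 22 alternatives (21 for the mean of doses). Over all probes the 1 µM comparison called 1, and 0 to 2 in the alternatives. Aspn, Bgn, Epyc and Omd have a blank and gave no value where all 12 arrays were required, nor did Epyc without control replicate 1 or 2, Omd without 10 nM replicate 1 or 2, Bgn without 100 nM replicate 1 or 2, or Aspn without 1 µM replicate 1 or 3. Against the reference the count of members called was 10 to 14 in control cells and 9 to 12 at 1 µM. The same replicate numbers occur in every group. The deviations of same-numbered arrays correlated at -0.10 to 0.25 (median 0.10), with 9 of 18 pairs over 0.1. Those of the 36 pairs with other numbers correlated at -0.31 to 0.21 (median -0.06), so the ranges overlapped. The consensus correlation within a replicate number was 0.045. Of 12 arrays, 8 correlated best with an array of their own number. The array titles are also numbered consecutively, through every group of 1 replicate number before the next. The labels do not say whether such a set was processed together, and the main fit left the replicate number out. With the replicate block as a fixed term, 0 members were called at each dose against control, 14 in control cells and 12 at 1 µM against the reference, where Kera in control cells (adjusted p = 0.0404) and Epyc at 1 µM (-0.71, adjusted p = 0.0306) then passed. With it as a random block neither passed (adjusted p = 0.0509 and 0.0848). Epyc at 1 µM passed also without centring (-0.87), with quantile normalization (-0.83) and without 100 nM replicate 2 (adjusted p = 0.0318).

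Values near 0 changed sign, all of them outside the calls, and the cause was not tested. With quantile normalization they were -0.0082 for Dcn probe 7159 at 100 nM, -0.17 for Ogn probe 1509, 0.080 for Bgn and -0.14 for Fmod at 10 nM, 0.23 for Lum, 0.093 for Bgn, -0.26 for Ogn probe 23653 and -0.013 for Prelp at 1 µM against 100 nM, and -0.0051 for Prelp at 1 µM against 10 nM. With arrays scaled to equal median absolute deviation they were -0.074 for Dcn probe 7159 at 100 nM, -0.0059 for Fmod at 10 nM, -0.11 for Ogn probe 23653 at 1 µM against 100 nM and -0.0016 for Prelp at 1 µM against 10 nM. With array weights they were 0.0088 for Bgn at 10 nM, -0.053 for Ogn probe 1509 and -0.19 for Omd in the mean of doses, -0.022 for Prelp at 1 µM against 100 nM, and -0.035 for Ogn probe 1509 and -0.032 for Prelp at 1 µM against 10 nM. Without centring Prelp was -0.016 at 1 µM against 100 nM.

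Leaving out 1 array at a time moved 35 of the 42 differences of a dose against control by over 1.5 times or turned their sign. The other 7 were Lum, Epyc and Prelp at 10 nM, Prelp at 100 nM, and Lum, Epyc and Dcn probe 31295 at 1 µM. Epyc gave no value without control replicate 1 or 2, so its control mean was never varied and its range covers the dose arrays alone. The ranges of the differences that turned sign, in every comparison, follow. At 10 nM against control they were -0.65 to 0.0052 for Aspn, -0.12 to 0.089 for Bgn, -0.058 to 0.12 for Dcn probe 33261, -0.24 to 0.24 for Dcn probe 7159, -0.20 to 0.28 for Fmod, -0.38 to 0.59 for Ogn probe 1509, -0.26 to 0.061 for Ogn probe 23653 and -0.10 to 0.62 for Omd. At 100 nM they were -0.16 to 0.076 for Dcn probe 24610, -0.21 to 0.099 for Dcn probe 33261, -0.12 to 0.13 for Dcn probe 7159 and -0.67 to 0.022 for Ogn probe 1509. At 1 µM they were -0.006 to 0.20 for Bgn and -0.041 to 0.67 for Ogn probe 1509, and -0.44 to 0.43 for Kera against the reference. In the mean of doses they were -0.13 to 0.022 for Dcn probe 33261, -0.22 to 0.030 for Dcn probe 7159, -0.36 to 0.33 for Ogn probe 1509 and -0.36 to 0.36 for Omd. At 1 µM against 100 nM they were -0.59 to 0.33 for Aspn, -0.29 to 0.025 for Dcn probe 33261, -0.33 to 0.10 for Fmod, -0.13 to 0.74 for Kera, -0.60 to 0.49 for Lum, -0.14 to 0.21 for Ogn probe 23653 and -0.26 to 0.27 for Prelp. At 1 µM against 10 nM they were -0.090 to 0.31 for Epyc, -0.029 to 0.47 for Fmod, -0.17 to 0.70 for Kera, -0.20 to 0.68 for Ogn probe 1509, -0.30 to 0.028 for Ogn probe 23653 and -0.21 to 0.32 for Prelp.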

Other observations

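Markers of tissues in which small leucine-rich proteoglycans are abundant were counted with 1 value per gene in control cells against the reference RNA. By limma with Benjamini-Hochberg adjustment, 26.5% of all genes were called higher and 19.6% lower. Of 7 cartilage and bone markers 5 were higher, 0 lower and 2 did not pass. The chondrocyte factor gene Sox9 stood highest at 3.58 (SE 0.54), with a wide spread among its control values (SD 1.13). The osteoblast factor gene Sp7 was at 0.69 (SE 0.17) and the cartilage collagen gene Col2a1 at -0.12 (SE 0.09). Of 3 tendon markers 1 was lower, Mkx at -0.41 (SE 0.15), while Scx at -0.12 (SE 0.14) and Tnmd at 0.25 (SE 0.16) did not pass. Of 3 corneal markers 1 was higher, Krt12 at 1.20 (SE 0.14), with Ptgds at 0.27 (SE 0.24) and Aldh3a1 at -0.05 (SE 0.14).

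Of 6 epithelial markers 3 were lower and 0 higher, with Krt8 at -1.43 (SE 0.16), Epcam at 0.33 (SE 0.18) and Cdh1 at 0.34 (SE 0.21). Of 3 endothelial markers 1 was higher, Pecam1 at 0.29 (SE 0.10), with Tek at 0.70 (SE 0.31) and Tie1 at -0.05 (SE 0.19). At 1 µM against control none of the genes on these 5 lists was called, and the list medians lay between -0.07 for tendon and 0.24 for cornea. Among fibroblast markers, Pdgfrb was at 1.56 (SE 0.14) and Pdgfra at -0.51 (SE 0.18) in control cells against the reference, and the leukocyte marker Cd68 was at -1.45 (SE 0.22).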
